A study of Mus musculus with 27 samples.

Results

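The immediate early genes of the AP-1, EGR and NR4A families were followed through 27 RNA-seq libraries of mouse splenic B cells. The set held 10 genes of the 54532 in the count tables, listed by gene name: Fos, Fosb and Fosl2 of the FOS family, Jun, Junb and Jund of the JUN family, Egr1, Egr2 and Egr3, and Nr4a1. All 10 passed the filter on low counts in every comparison, so no member is missing from the counts given here. The cells were wild-type B cells from C57BL6 spleen, cultured for 3 h. In the first experiment there were 5 groups of 4 libraries: unstimulated B cells, those stimulated with LPS (a ligand of TLR4), B cells stimulated with IL-4 and an antibody to CD40 (IL4CD40 in the labels, a stand-in for help from T cells), and B cells given either stimulus with 1 μM disulfiram (DSF), a drug used against alcoholism. The stimulated libraries without DSF in the first experiment are titled as vehicle, whereas the titles of the unstimulated ones name no vehicle. A stimulus alone below means the stimulus with vehicle. In the second experiment each of 7 conditions had 1 library, the same 5 and either stimulus with 1 μM ibrutinib, an inhibitor of the kinase BTK, and the libraries without inhibitor carried DMSO. The study calls the samples of a group biologically independent, without naming animals or cultures, and the labels do not say whether they came from separate animals, so the p-values measure the spread between these samples.

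Immediate early genes are transcribed within minutes of a stimulus, from factors already present in the cell, and their mRNAs are short-lived. FOS and JUN proteins pair through leucine zippers to form AP-1, which binds DNA at TGANTCA, and JUN proteins can also pair with one another whereas FOS proteins cannot. EGR1, EGR2 and EGR3 are zinc finger factors that bind a GC-rich site, and NR4A1 (Nur77) is an orphan nuclear receptor. In B cells, Egr1, Egr2, Egr3 and Nr4a1 are known as genes induced by signals of the antigen receptor, where BTK acts, and many of these genes are read out as marks of recent stimulation.

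To set the members' regulatory sequences beside their values, the 250 bases upstream of each RefSeq transcript start were searched on both strands for 5 motifs: the CArG box bound by SRF, the full cyclic AMP response element TGACGTCA, its core TGACG (which also lies within the full element), the AP-1 site TGANTCA and the EGR site GCGNGGGCG. Windows were available for 8 of the 10 members, not for Egr1 and Egr3. TGACG was in a window of 5 of the 8 members (Fos, Fosb, Junb, Egr2 and Nr4a1), against 17.8% of the 32851 windows of the RefSeq table. The EGR site was in those of Fosb, Fosl2 and Nr4a1, against 4.7% of windows, and a CArG box in that of Egr2 alone, against 1.47%. Neither TGACGTCA (1.55% of windows) nor TGANTCA (6.75%) was found in any of the 8. Shown here are the members with TGACG, and Jun, which DSF moved in opposite directions under the stimuli in the first experiment, with every match in capitals and each sequence read 5′ to 3′ on the strand of its gene (RefSeq, GRCm38.p6). The Egr2 window is 1 of 5 listed for that gene and was picked because it holds the CArG box. The others hold it too, except the window that starts at 67535249. The shown window lies, like that of Nr4a1, inside the span that the count tables give for the gene. A member was counted when any of its windows had a match, whereas the shares are of single windows.
Fos, chr12:85473640-85473889, plus strand: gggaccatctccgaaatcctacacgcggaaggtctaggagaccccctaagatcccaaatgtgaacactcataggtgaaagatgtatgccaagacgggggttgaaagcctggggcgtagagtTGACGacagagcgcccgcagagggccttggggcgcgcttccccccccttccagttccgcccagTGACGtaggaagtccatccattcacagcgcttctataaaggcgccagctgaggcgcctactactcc
Fosb, chr7:19310046-19310295, minus strand: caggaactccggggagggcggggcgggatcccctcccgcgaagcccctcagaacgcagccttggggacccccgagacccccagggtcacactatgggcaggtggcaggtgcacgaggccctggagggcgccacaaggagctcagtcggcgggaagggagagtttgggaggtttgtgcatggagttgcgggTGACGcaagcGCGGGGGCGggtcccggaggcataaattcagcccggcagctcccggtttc
Jun, chr4:95052223-95052472, minus strand: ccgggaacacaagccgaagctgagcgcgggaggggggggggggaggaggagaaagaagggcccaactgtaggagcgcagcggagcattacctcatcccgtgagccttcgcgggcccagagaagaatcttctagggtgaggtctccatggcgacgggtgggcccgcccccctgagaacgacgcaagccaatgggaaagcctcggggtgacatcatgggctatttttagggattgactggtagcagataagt
Junb, chr8:84978749-84978998, minus strand: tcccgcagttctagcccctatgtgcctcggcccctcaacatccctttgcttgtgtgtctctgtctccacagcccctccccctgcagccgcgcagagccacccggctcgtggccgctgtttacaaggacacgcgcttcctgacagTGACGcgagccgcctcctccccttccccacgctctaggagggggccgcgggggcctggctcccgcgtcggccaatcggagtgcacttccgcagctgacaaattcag
Egr2, chr10:67537619-67537868, plus strand: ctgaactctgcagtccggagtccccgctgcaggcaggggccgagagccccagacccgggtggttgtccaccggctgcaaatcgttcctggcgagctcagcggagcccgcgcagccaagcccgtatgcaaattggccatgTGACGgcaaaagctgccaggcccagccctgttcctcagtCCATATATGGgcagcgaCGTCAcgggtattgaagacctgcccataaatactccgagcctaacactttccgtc
Nr4a1, chr15:101266596-101266845, plus strand: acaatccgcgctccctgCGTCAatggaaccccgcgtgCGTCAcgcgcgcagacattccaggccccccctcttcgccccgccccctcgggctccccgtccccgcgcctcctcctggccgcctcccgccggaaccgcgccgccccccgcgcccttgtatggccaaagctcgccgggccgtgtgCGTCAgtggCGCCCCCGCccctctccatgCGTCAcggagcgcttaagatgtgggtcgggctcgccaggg
The Fos window holds TGACG in 2 places, that of Egr2 in 2 and that of Nr4a1 in 4, each also counting its reverse complement. The Jun window held none of the 5 motifs. A match of letters is a description of the window and not a bound site.

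The first experiment's libraries held 17804851 to 23632992 counts each and the second's 16049295 to 24619776. Within the unstimulated group of the first experiment, libraries 1 and 2 stood apart from libraries 3 and 4. Of 11123 genes averaging at least 50 counts, 27 differed by 2-fold or more between libraries 1 and 2 and 66 between libraries 3 and 4, whereas 1139 to 1175 did across the pairs. The LPS libraries differed from each other at 29 to 46 genes. A milder split between the same library numbers was present with IL4CD40, with 50 and 72 genes within the pairs and 187 to 457 across them. With IL4CD40 and DSF it was 34 and 36 genes within the pairs and 89 to 151 across them. For Fosl2, Nr4a1 and Egr1, libraries 3 and 4 were on average lower without stimulation and higher with IL4CD40. The other members kept their direction. The share of all genes that kept theirs was not counted. Over genes averaging at least 10 counts, deviations from the group mean in unstimulated and IL4CD40 libraries had correlations of -0.0339 to 0.0282. Because of the split, the members' changes from unstimulated cells were also computed against libraries 1 and 2 alone and against libraries 3 and 4 alone, an alternative chosen after seeing the data. Such fits leave out the spread between the pairs, which was far larger than that within them. Their p-values are therefore too small as a measure of the spread between unstimulated samples. B cell marker genes were present in all groups, with the 6 markers summing to 3011 to 8327 CPM (counts scaled by library size). Those of unstimulated libraries 1 and 2 summed to 5310 and 5364 CPM and those of libraries 3 and 4 to 8256 and 8327, and the erythroid markers to at most 3.08 CPM against at least 14.0 CPM. In the other direction, the neutrophil markers summed to 37.8 and 36.4 CPM in libraries 1 and 2 and to 8.79 and 12.97 CPM in libraries 3 and 4, and those of T cells and NK cells were also higher in libraries 1 and 2 (7.36 to 9.61 against 4.25 to 5.09 CPM). Markers of T cells, NK cells, neutrophils and erythroid cells summed to at most 37.8 CPM in any library. Myeloid markers, mainly Lyz2, summed to 542 to 659 CPM in unstimulated cells and to 149.5 to 291 CPM in the other groups. In bulk samples fewer cells of a type and less RNA per cell cannot be told apart.

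Per unit of length, Junb was the most abundant member in all 5 groups of the first experiment. Its FPKM, the authors' value scaled by gene length and library size, was 139.5 ± 64.0 (SD, n = 4) in unstimulated cells, 240.1 ± 12.2 with LPS and 364 ± 13.8 with LPS and DSF. With IL4CD40 it was 155 ± 5.17, and 203 ± 18.1 with DSF. With LPS, Nr4a1 followed at 201 ± 6.49 FPKM and then Jun at 116 ± 4.24, and the ranges of neighbours among the first 6 members did not overlap. Without stimulation the ranges of neighbours overlapped at 8 of the 9 steps of the order, so that only Egr3 (30.0 ± 2.73 FPKM) stood clear of the member below it, Egr1 (19.2 ± 0.943). With IL4CD40 the order began with Junb, Jund and Nr4a1, and Egr2, at 32.4 ± 5.49 FPKM, came next. The lowest member was Fosl2 in unstimulated cells (1.71 ± 1.41 FPKM) and with IL4CD40 and DSF (5.55 ± 0.392), Fosb with LPS (2.25 ± 0.767) and with IL4CD40 (2.51 ± 1.54), and Egr2 with LPS and DSF (5.83 ± 0.462), where its range overlapped that of Fosl2.

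**Figure D1:**
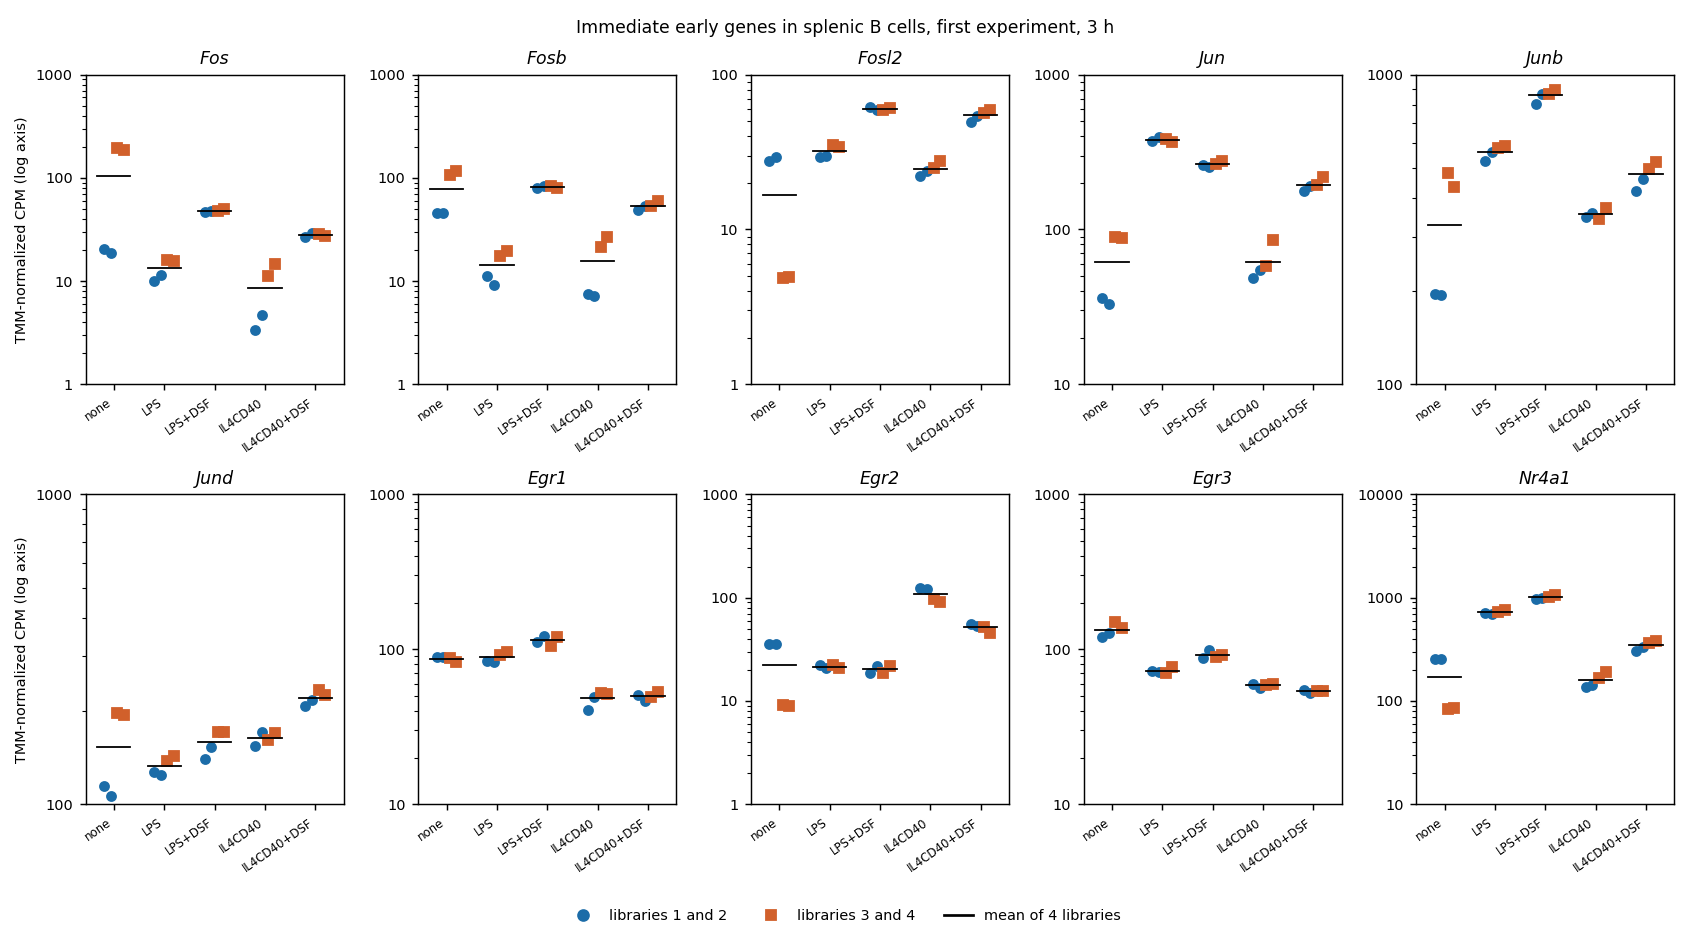
TMM-normalized CPM of each member (1 panel per gene, log axis) in the 20 libraries of the first experiment, by group on the x axis, with circles for libraries 1 and 2, squares for libraries 3 and 4 and a bar for the mean. Unstimulated libraries 1 and 2 are apart from 3 and 4 for all 10 genes, by little for Egr1 and Egr3. The share of all genes apart in this way was not counted. Across these pairs 1139 to 1175 of 11123 genes differed by 2-fold or more. The DSF-treated libraries of Fos, at 26.4 to 49.8 CPM, lie above all libraries with the stimulus alone.

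At 3 h, LPS left the members split: Jun, Junb and Nr4a1 were higher than in unstimulated B cells, and Fos, Fosb and Egr3 were lower. These were 3 and 3 of the 10 members by edgeR's quasi-likelihood test with a Benjamini-Hochberg adjusted p under 0.05, where 29.6% of the 14477 genes tested were higher and 33.3% lower. With IL4CD40, 1 member was higher (Egr2) and 4 were lower (Fos, Fosb, Egr1 and Egr3), against 30.4% and 32.1% of 14433 genes. Both comparisons use the same unstimulated libraries. The median log2 fold change of the members was -0.01 with LPS and 0.00 with IL4CD40, against -0.05 and -0.04 over all genes tested.

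Fos (ENSMUSG00000021250, chromosome 12 of GRCm38, 85473890 to 85477273, plus strand) encodes the founding AP-1 subunit and a protein that needs a JUN partner. It was at 20.3, 18.6, 194 and 185 CPM in unstimulated libraries 1 to 4, at 10.1, 11.5, 16.2 and 15.8 with LPS and at 3.39, 4.72, 11.3 and 14.6 with IL4CD40. The unstimulated libraries thus fell into a low and a high pair 9.74-fold apart, and all 4 lay above every stimulated library. Fos fell by 2.97 (log2) with LPS (SE 0.80, adjusted p = 0.0106 from edgeR) and by 3.58 with IL4CD40 (SE 0.89, adjusted p = 0.00679). Against unstimulated libraries 1 and 2 alone the log2 fold changes were -0.55 (adjusted p = 0.000784) and -1.18 (adjusted p = 0.054), so that the size rests on libraries 3 and 4, against which they were -3.81 and -4.42. Fosb (ENSMUSG00000003545, chromosome 7, 19302696 to 19310051, minus strand), a close relative, was at 45.9, 46.0, 106 and 116 CPM without stimulation, at 11.3, 9.15, 17.3 and 19.5 with LPS and at 7.57, 7.18, 21.2 and 26.6 with IL4CD40. Here too no stimulated library reached an unstimulated one, and the pairs of libraries kept the same order in all 3 groups. Fosb fell by 2.46 with LPS (SE 0.39, adjusted p = 0.000639 from edgeR) and by 2.29 with IL4CD40 (SE 0.50, adjusted p = 0.0035), and the log2 fold changes were -1.70 and -1.54 against libraries 1 and 2. Fosl2 (ENSMUSG00000029135, chromosome 5, 32135801 to 32157842, plus strand) encodes FRA2, which lacks the transactivation domain of FOS. It was at 27.6, 29.4, 4.83 and 4.91 CPM without stimulation, 29.3, 29.9, 35 and 34.0 with LPS and 22.1, 23.9, 24.8 and 27.7 with IL4CD40. Its unstimulated pairs were split in the opposite sense to those of Fos, and it passed the test under neither stimulus (log2 changes of 0.94, SE 0.57, adjusted p = 0.177 and 0.61, SE 0.56, adjusted p = 0.365). Against libraries 3 and 4 alone Fosl2 was higher by 2.75 and 2.41, and against libraries 1 and 2 the values were 0.17 with LPS and -0.19 with IL4CD40 (adjusted p = 0.063 and 0.138 from edgeR).

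Jun (ENSMUSG00000052684, chromosome 4, 95049034 to 95052222, minus strand), an intronless gene whose product forms AP-1 with FOS or with itself, separated the stimuli most among the JUN genes. It was at 35.9, 33.2, 89.2 and 87.8 CPM without stimulation, at 372, 396, 382 and 365 with LPS and at 48.3, 54.8, 57.8 and 86.0 with IL4CD40. The 4 LPS libraries lay above all others, while the IL4CD40 libraries lay between the unstimulated pairs. Jun rose 6.16-fold with LPS, a log2 change of 2.62, SE 0.34, adjusted p = 0.0002, and did not pass the test with IL4CD40 (0.05, SE 0.35, adjusted p = 0.908). Against unstimulated libraries 1 and 2 the log2 change with LPS was 3.46 and against 3 and 4 it was 2.13. With IL4CD40 these were 0.86 (adjusted p = 0.00642 from edgeR) and -0.45 (adjusted p = 0.0543), from fits that leave out the spread between the pairs. Junb (ENSMUSG00000052837, chromosome 8, 84974484 to 84978718, minus strand), a weaker transactivator than JUN, was at 196, 194, 479.6 and 433 CPM without stimulation and at 525 to 589.8 CPM with LPS. It rose with LPS by 0.79, SE 0.30, adjusted p = 0.0444, a call that was lost without unstimulated library 1 or 2 or any single LPS library (adjusted p from 0.0663 to 0.0866). With IL4CD40 it was at 343 to 370.2 CPM, between the unstimulated pairs, and the log2 fold change was 0.17, SE 0.29, adjusted p = 0.633. Against unstimulated libraries 1 and 2 the values of Junb were 1.53 with LPS and 0.88 with IL4CD40, and against 3 and 4 they were 0.33 and -0.30, so that its sign with IL4CD40 turned. Jund (ENSMUSG00000071076, chromosome 8, 70698949 to 70700616, plus strand), the JUN family member that is expressed at a steady level in resting cells, ranged over 106 to 198 CPM without stimulation, 124 to 144 with LPS and 154 to 172 with IL4CD40. It passed neither test (-0.20, SE 0.21, adjusted p = 0.425 and 0.15, SE 0.21, adjusted p = 0.548), and its change had opposite signs against the pairs of unstimulated libraries, at 0.27 and -0.53 with LPS and 0.60 and -0.19 with IL4CD40. Jun overlaps the antisense gene Junos (212 counts in the 20 libraries), Junb overlaps Prdx2 (18304 counts, against 203669 for Junb itself) and Jund overlaps Gm11175 (0 counts). The strand setting of the counting is not given in the sources used here, so these overlaps leave the values of Junb uncertain to that extent.

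Egr1 (ENSMUSG00000038418, on chromosome 18) was the member with the most even unstimulated libraries, at 82.5 to 89.7 CPM. With LPS it was at 82.8 to 95.9 CPM, and the difference did not pass the test (0.03, SE 0.06, adjusted p = 0.744). With total counts as the scaling its sign turned and it was called lower (-0.20, adjusted p = 0.0361 from edgeR). With IL4CD40 it was at 40.9 to 52.2 CPM in a range below all unstimulated libraries, and fell by 0.79 on the log2 scale (SE 0.08, adjusted p = 5.29e-05 from edgeR). Against the pairs of unstimulated libraries Egr1 was at -0.01 and 0.09 with LPS and at -0.86 and -0.74 with IL4CD40. Egr2 (ENSMUSG00000037868, chromosome 10, 67535475 to 67542188, plus strand), known in lymphocytes as a brake on activation, was at 35.9, 35.2, 9.08 and 8.96 CPM without stimulation, 22.3, 20.7, 22.4 and 20.7 with LPS and 124, 122, 97.8 and 91.2 with IL4CD40. Every IL4CD40 library was above every other stimulated or unstimulated library. Egr2 rose 5.08-fold with IL4CD40, a log2 change of 2.34, SE 0.47, adjusted p = 0.00216, which was 1.64 against unstimulated libraries 1 and 2 and 3.66 against 3 and 4. With LPS its libraries lay between the unstimulated pairs, so that the log2 change of -0.05, SE 0.46, adjusted p = 0.932 became -0.72 against libraries 1 and 2 and 1.28 against 3 and 4. Egr3 (ENSMUSG00000033730, chromosome 14, 70077203 to 70082614, plus strand) fell under both stimuli in every library. It was at 121, 128, 151 and 137 CPM without stimulation, 72.6, 71.1, 69.9 and 76.5 with LPS and 59.8, 56.4, 58.9 and 59.7 with IL4CD40. The decrease was 0.88 (log2) with LPS (SE 0.08, adjusted p = 2.21e-05) and 1.14 with IL4CD40 (SE 0.08, adjusted p = 7.48e-06 from edgeR), and between -0.77 and -1.22 against either unstimulated pair.

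Nr4a1 (ENSMUSG00000023034, chromosome 15, 101254269 to 101274795, plus strand) was at 256, 258, 84.5 and 85.7 CPM without stimulation, 707, 702, 719.8 and 753 with LPS and 136, 144, 165 and 190.2 with IL4CD40. The LPS libraries were close to one another and above all unstimulated and IL4CD40 libraries. Nr4a1 rose 4.23-fold with LPS, by 2.08, SE 0.39, adjusted p = 0.00151, and by 1.49 or 3.11 when only unstimulated libraries 1 and 2 or 3 and 4 were used. With IL4CD40 the libraries lay between the unstimulated pairs (-0.05, SE 0.38, adjusted p = 0.909), and the log2 fold change was -0.67 against libraries 1 and 2 and 0.97 against 3 and 4.

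**Figure D2:**
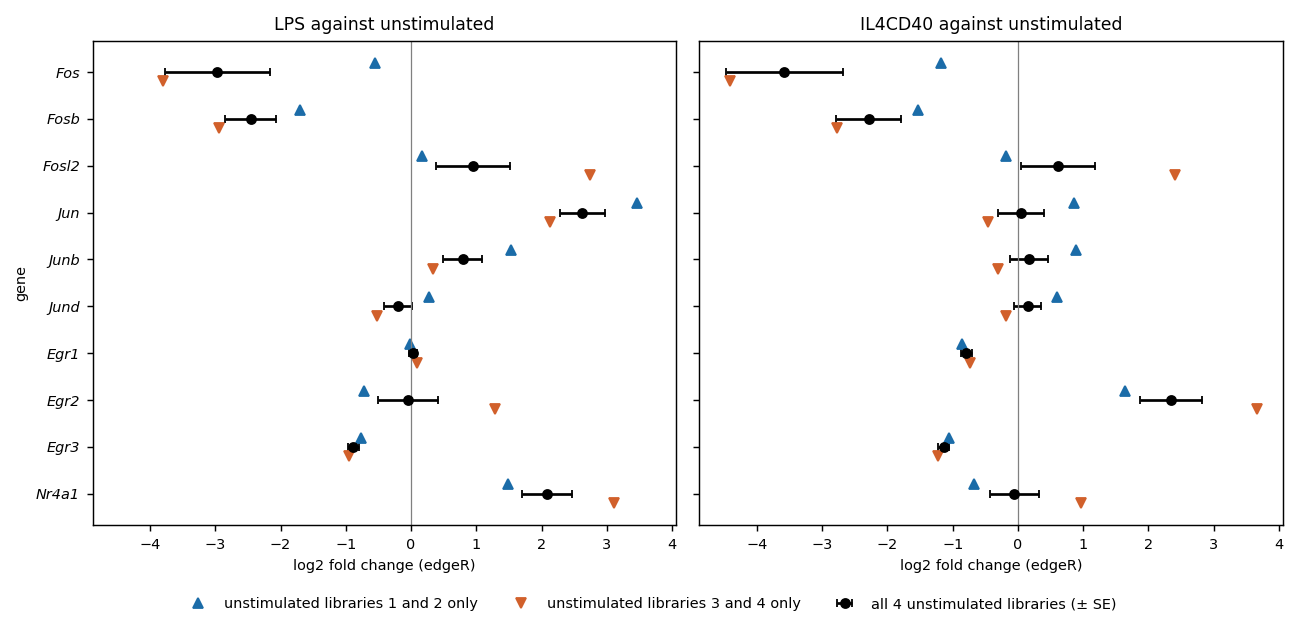
Log2 fold change of each member (y axis) with LPS (left) and with IL4CD40 (right) against unstimulated cells, with circles and bars for all 4 unstimulated libraries ± SE and triangles for unstimulated libraries 1 and 2 only (upward) and 3 and 4 only (downward). Jun and Nr4a1 with LPS and Egr2 with IL4CD40 lie to the right of 0 and Fos, Fosb and Egr3 to the left for every set of unstimulated libraries, whereas the markers of Jund, Egr1 and Egr2 with LPS and of Fosl2, Jun, Junb, Jund and Nr4a1 with IL4CD40 lie on both sides.

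The LPS and IL4CD40 libraries were also compared directly, which leaves the unstimulated libraries aside. Jun, Nr4a1, Egr1, Junb, Fosl2 and Egr3 were higher with LPS, and Egr2 and Jund were higher with IL4CD40, so that 6 members were higher and 2 lower, against 22.3% and 17.3% of the 14078 genes tested. The differences of Jun (2.63, SE 0.14, adjusted p = 4.37e-08, 6.17-fold) and Nr4a1 (2.19, SE 0.09, adjusted p = 4.34e-09, 4.56-fold) were large in one direction and that of Egr2 in the other (-2.33, SE 0.11, adjusted p = 9.33e-09, 5.04-fold lower with LPS). Egr1 was 1.83-fold higher with LPS, Junb 1.60-fold, Fosl2 1.31-fold and Egr3 1.24-fold, and Jund was 1.23-fold lower. Fos (0.66, SE 0.37, adjusted p = 0.178) and Fosb (-0.12, SE 0.40, adjusted p = 0.834) did not pass the test, and the call of Fos changed without IL4CD40 library 4 (1.04, adjusted p = 0.0166 from edgeR).

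DSF raised most of the members in LPS-stimulated B cells. Fosb, Fos and Fosl2 of the FOS family rose most, Junb, Nr4a1, Egr1, Egr3 and Jund rose by 1.21-fold to 1.54-fold, Jun fell, and Egr2 did not pass the test. These were 8 members higher and 1 lower of 10, against 35.1% and 36% of the 14154 genes tested. For 7 members every DSF-treated library was above every library with LPS alone and for 1 every library was below, against 30.3% and 33.8% of genes. The median log2 fold change of the members was 0.45, against 0.00 over all genes.

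Fosb was at 79.2, 83.8, 84.1 and 80.1 CPM with LPS and DSF, against 11.3, 9.15, 17.3 and 19.5 with LPS alone. The groups were far apart and the DSF-treated libraries close to each other. Fosb was 5.87-fold higher, a log2 change of 2.55, SE 0.12, adjusted p = 1.65e-15. Fos was at 47.0, 48.1, 47.4 and 49.8 CPM, against 10.1, 11.5, 16.2 and 15.8, a 3.67-fold difference (1.87, SE 0.10, adjusted p = 8.22e-15). The DSF-treated libraries were close to each other, below the high pair of unstimulated libraries and above the low pair. Fosl2 was at 61.3, 59.1, 58.6 and 61.0 CPM and 1.90-fold higher (0.93, SE 0.06, adjusted p = 6.92e-13), again without overlap.

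Among the JUN genes, Jun was at 259.7, 253, 266 and 276 CPM with LPS and DSF, below all 4 libraries with LPS alone (372, 396, 382 and 365). It fell by 0.51 on the log2 scale, 1.42-fold, with an SE of 0.04 and an adjusted p of 4.27e-11 from edgeR. Junb was at 802, 866, 866 and 893 CPM, above the 525 to 589.8 CPM without DSF, and 1.54-fold higher (0.62, SE 0.04, adjusted p = 2.6e-12). Jund was at 139.9, 154, 171 and 171 CPM and 1.21-fold higher (0.27, SE 0.06, adjusted p = 0.000109), but its lowest DSF-treated library was below the highest library with LPS alone, and with total counts as the scaling the call was lost (0.06, adjusted p = 0.308 from edgeR).

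Egr1 was at 111, 122, 105 and 120.2 CPM with LPS and DSF, against 82.8 to 95.9 without DSF, and 1.31-fold higher (0.39, SE 0.05, adjusted p = 3.24e-07). Egr3 was at 88.2, 98.8, 89.0 and 91.3 CPM against 69.9 to 76.5, and 1.28-fold higher (0.36, SE 0.05, adjusted p = 2.17e-07). For both genes the groups did not overlap. Egr2 was at 18.6, 21.9, 18.9 and 21.6 CPM against 20.7 to 22.4, with overlapping groups (-0.07, SE 0.08, adjusted p = 0.415), although with total counts as the scaling it was called lower (-0.28, adjusted p = 0.00185 from edgeR). Nr4a1 was at 973, 994, 1019 and 1053 CPM against 702 to 753, 1.42-fold higher (0.50, SE 0.04, adjusted p = 3.4e-11), and here the 4 DSF-treated libraries held the highest values of any group. Fitted with all 20 libraries at once, which takes its spread also from the unstimulated libraries, the calls of Jun (-0.52, adjusted p = 0.0721 from edgeR), Jund (0.25, 0.157) and Nr4a1 (0.49, 0.124) were lost.

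In B cells stimulated with IL4CD40, DSF raised all 3 FOS genes, all 3 JUN genes and Nr4a1, and lowered Egr2 and Egr3. This made 7 members higher and 2 lower, against 30.1% and 31.6% of the 14275 genes tested. Every DSF-treated library was above every library without DSF for 7 members and below for 2, against 30.6% and 26.5% of genes. The median log2 fold change of the members was 0.72, against -0.02 over all genes. This comparison shares no library with that under LPS.

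Fos was at 26.4, 29.4, 28.4 and 27.2 CPM with IL4CD40 and DSF, against 3.39, 4.72, 11.3 and 14.6 without DSF. The treated libraries were even and the untreated ones were not. Fos was 3.16-fold higher (1.66, SE 0.34, adjusted p = 0.0013), and the log2 fold change was 2.71 in libraries 1 and 2 of both groups and 1.06 in libraries 3 and 4. Fosb was at 48.3, 53.3, 53.7 and 60.0 CPM against 7.57, 7.18, 21.2 and 26.6, 3.32-fold higher (1.73, SE 0.34, adjusted p = 0.00102), with 2.72 and 1.21 in the pairs. So the direction held in both pairs of libraries, with a larger difference in libraries 1 and 2. Fosl2 was at 49.4, 54.2, 56.3 and 59.0 CPM against 22.1, 23.9, 24.8 and 27.7, 2.13-fold higher (1.09, SE 0.08, adjusted p = 1.35e-06), and the pairs gave 1.11 and 1.09.

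Jun, which DSF had lowered with LPS, was at 178, 191, 193 and 218 CPM with IL4CD40 and DSF, against 48.3, 54.8, 57.8 and 86.0 without DSF. It was 3.03-fold higher (1.60, SE 0.15, adjusted p = 4.37e-06), and every treated library was above every untreated one. The DSF-treated level with IL4CD40 still lay below that with LPS and DSF in every library. Junb was at 421, 462, 497 and 524 CPM against 343 to 370.2, 1.29-fold higher (0.37, SE 0.07, adjusted p = 0.000503), and Jund at 208, 216, 234 and 226 against 154 to 172, 1.29-fold higher (0.37, SE 0.05, adjusted p = 0.000103). The call of Junb was lost in the fit of all 20 libraries (0.43, adjusted p = 0.0874 from edgeR).

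Egr2, the member that IL4CD40 had raised, was at 56.0, 53.5, 51.9 and 45.8 CPM with DSF, against 124, 122, 97.8 and 91.2 without it. The groups did not overlap, and Egr2 fell by 1.13 on the log2 scale, 2.19-fold (SE 0.11, adjusted p = 6.28e-06 from edgeR). Its DSF-treated libraries still lay above all unstimulated ones. Egr3 was at 54.4, 52.2, 53.9 and 54.0 CPM against 56.4 to 59.8 and fell by 0.19 (SE 0.05, adjusted p = 0.00605 from edgeR), a call lost in libraries 3 and 4 alone (-0.18, adjusted p = 0.0619) and in the fit of all 20 libraries (-0.13, 0.082). Egr1 was at 50.8, 46.3, 49.1 and 53.4 CPM against 40.9 to 52.2, in overlapping ranges (-0.02, SE 0.08, adjusted p = 0.851). Nr4a1 was at 304, 335, 367 and 381 CPM against 136, 144, 165 and 190.2, 2.10-fold higher without overlap (1.07, SE 0.10, adjusted p = 5.4e-06).

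The B cell markers moved beside these changes. All 6 were lower with DSF under LPS, their sum going from 4358 to 4459 CPM to 3011 to 3193 CPM. Under IL4CD40, 4 were lower and 1 higher, with sums of 3902 to 4344 CPM without DSF and 3162 to 3345 CPM with it. Of the 6 myeloid markers, 4 were higher with DSF under IL4CD40 (231.5 to 291 CPM in sum, against 172 to 195 CPM), and 2 were higher and 1 lower under LPS (165 to 174 CPM against 149.5 to 171 CPM). Their part in the members' changes was not tested.

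**Figure D3:**
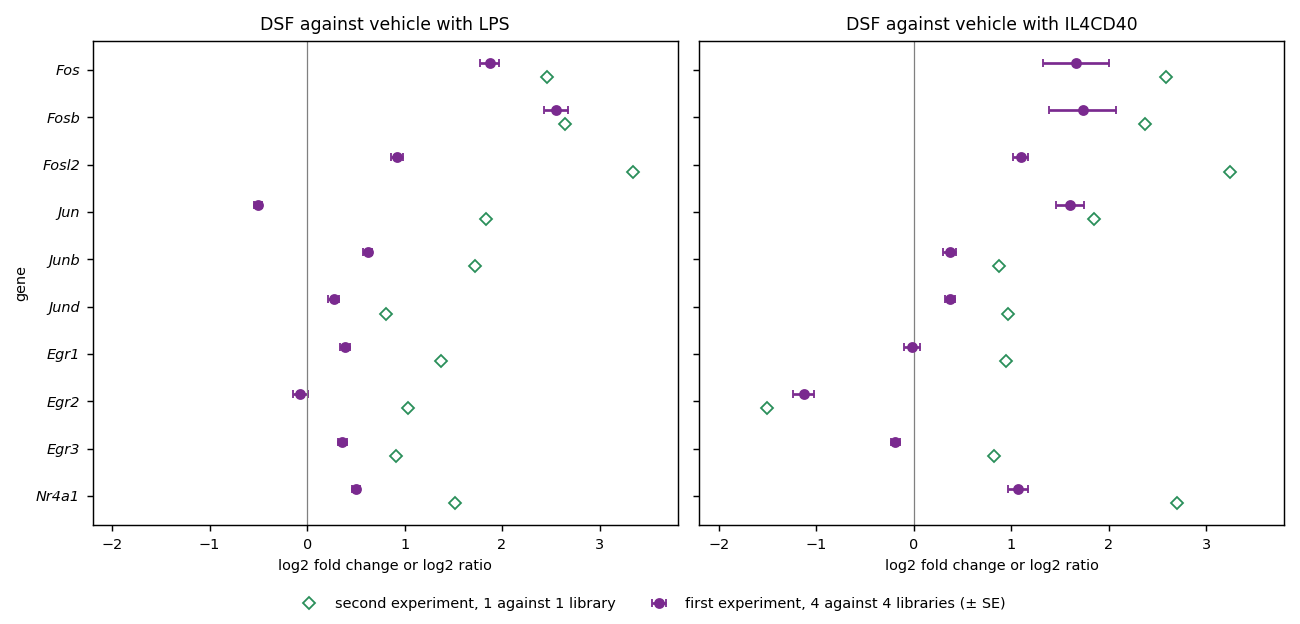
Log2 fold change of each member (y axis) with DSF against the same stimulus alone, under LPS (left) and IL4CD40 (right), with filled circles ± SE for the first experiment (4 against 4 libraries) and open diamonds for the log2 ratio of the second (1 against 1, with no error). Jun in the left panel lies on opposite sides of 0, at -0.51 in the first experiment and 1.83 in the second.

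The DSF effect differed between the stimuli for 6 members, tested as an interaction over 16 libraries. It was higher under LPS for Egr2, Egr3, Egr1 and Junb and lower for Jun and Nr4a1, or 4 and 2 of 10, against 7.92% and 6.96% of the 15130 genes tested. The difference was largest for Jun (-2.11 on the log2 scale, SE 0.16, adjusted p = 2.81e-08 from edgeR), where the effect itself had opposite signs. For Egr2 it was 1.06, SE 0.14, adjusted p = 3.1e-05, for Egr3 0.54, SE 0.07, adjusted p = 1.09e-05 and for Egr1 0.40, SE 0.10, adjusted p = 0.0103. For Nr4a1, which rose under both stimuli, the rise was smaller under LPS (-0.57, SE 0.11, adjusted p = 0.00146). The difference of Junb (0.25, SE 0.08, adjusted p = 0.0484) was past the threshold only narrowly and was lost without any 1 of 13 single libraries (adjusted p from 0.0503 to 0.106). The FOS genes were not called: 0.20, SE 0.36, adjusted p = 0.771 for Fos, 0.80, SE 0.40, adjusted p = 0.195 for Fosb and -0.17, SE 0.10, adjusted p = 0.265 for Fosl2. Fosb was called when all genes with any count were kept (0.79, adjusted p = 0.000903 from edgeR), in libraries 3 and 4 (0.97, adjusted p = 0.00016) and without IL4CD40 library 2 (1.04, adjusted p = 0.0494). For Fos the difference was -0.56 in libraries 1 and 2 (adjusted p = 0.0409 from edgeR) and 0.56 in libraries 3 and 4 (0.0221), which is a turn of its direction.

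Set against unstimulated cells, the cells given LPS and DSF had 5 members higher (Nr4a1, Jun, Fosl2, Junb and Egr1) and 1 lower (Egr3), against 34.3% and 37.3% of 14663 genes. These comparisons share the unstimulated libraries with the earlier ones. Nr4a1 was 5.87-fold higher than without stimulation, Jun 4.27-fold, Fosl2 3.56-fold, Junb 2.62-fold and Egr1 1.30-fold, the last with the opposite sign under total counts as the scaling (-0.03). These sizes depended on the unstimulated pair. Against libraries 1 and 2 and against libraries 3 and 4, the log2 fold changes were 1.92 and 3.56 for Nr4a1, 2.88 and 1.57 for Jun, 1.02 and 3.61 for Fosl2, 2.08 and 0.90 for Junb and 0.30 and 0.42 for Egr1. The call of Fosl2 was lost with total counts as the scaling (1.41, adjusted p = 0.0503 from edgeR). For Egr3, which was lower, they were -0.49 and -0.66, and Fosb (0.78 and -0.45), Jund (0.47 and -0.31) and Egr2 (-0.86 and 1.16) changed sign. Fos (-1.12, SE 0.72, adjusted p = 0.189) and Fosb (0.05, SE 0.30, adjusted p = 0.885) were not called, and the log2 fold change of Fos was 1.25 against unstimulated libraries 1 and 2 and -1.99 against 3 and 4. With IL4CD40 and DSF, 5 members were higher (Fosl2, Jun, Egr2, Nr4a1 and Jund) and 3 lower (Fos, Egr3 and Egr1), against 33.4% and 35.3% of 14678 genes. Of these, Egr1 and Egr3 fell by 0.80 and 1.32 on the log2 scale (adjusted p = 7.88e-06 and 1.24e-06 from edgeR) and Jun was 3.18-fold higher. The calls of Fos, Jund, Egr2 and Nr4a1 were each lost without any single DSF-treated library and without others of the unstimulated ones, with adjusted p-values up to 0.116. That of Fosl2 was lost without DSF-treated library 3 or 4 (adjusted p = 0.0502 for either) and with total counts as the scaling (1.38, adjusted p = 0.058). Fos had a log2 change of -1.90, SE 0.74, adjusted p = 0.0454, which was 0.48 against unstimulated libraries 1 and 2 and -2.76 against 3 and 4. In the same order the pairs gave 2.46 and 1.15 for Jun, 0.91 and 3.50 for Fosl2, 0.51 and 2.53 for Egr2, 0.40 and 2.03 for Nr4a1 and 0.97 and 0.18 for Jund. Egr1 and Egr3 were between -0.76 and -1.42 against either pair, Junb was at 1.25 and 0.07, and Fosb (0.19 and -1.04) changed sign.

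To place the members among related genes, 4 lists were written by hand: 11 other bZIP genes that pair with or resemble AP-1 subunits, 5 relatives and corepressors of the EGR and NR4A factors, 22 kinases and factors that act upstream, and 20 other immediate early genes. The lists, like the members, were chosen with earlier results of these data known, so their counts are a description. Under LPS, DSF raised 8 and lowered 1 of the 10 AP-1 partners tested, with a median log2 fold change of 0.87. Maff, a small MAF protein without a transactivation domain, was 25.4-fold higher (log2 fold change 4.67, SE 0.07, adjusted p = 6.48e-26), Fosl1 (FRA1) 8.15-fold and Atf3, a stress-induced bZIP factor, 7.28-fold. Batf, a partner of JUN proteins in lymphocytes, fell by 0.48. Of the 4 relatives of EGR and NR4A genes tested, 3 rose and 1 fell: Nr4a2 was 9.42-fold higher (log2 fold change 3.23, SE 0.11, adjusted p = 6.55e-19), the EGR corepressor gene Nab2 1.93-fold and Nr4a3 1.10-fold, and Nab1 fell by 0.21. Among 19 other immediate early genes, 17 rose and 1 fell (median 0.88), with Klf10 at 5.97-fold, Klf6 at 4.28-fold and Plk3 at 3.57-fold, whereas Myc fell by 0.44. The upstream list had 6 of 22 higher and 12 lower and a median of -0.14, led by Mef2c, which encodes a MADS box factor and fell by 1.58. These counts stand beside 35.1% of genes higher and 36% lower, and a median of 0.00 over all genes.

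With IL4CD40, DSF raised 7 and lowered 2 of 10 AP-1 partners (median 1.12), among them Maff (6.87-fold higher), Atf3 (5.53-fold) and Fosl1 (3.82-fold), and Batf fell by 0.45. Nr4a2 was 7.50-fold higher (log2 fold change 2.91, SE 0.23, adjusted p = 2.21e-06) and Nab2 1.58-fold, and Nab1 fell by 0.25, so that 2 of 4 relatives were higher and 1 lower. Of the 19 other immediate early genes 15 rose and 2 fell (median 0.87). The phosphatase gene Dusp1 (5.44-fold), the antiproliferative gene Btg2 (3.03-fold) and Klf6 (2.89-fold) rose most, and Myc and Rel fell by 0.63 and 0.20. Of the upstream list 6 rose and 8 fell (median -0.08), with Mef2c again lowest at -1.94. The background was 30.1% of genes higher and 31.6% lower.

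**Figure D4:**
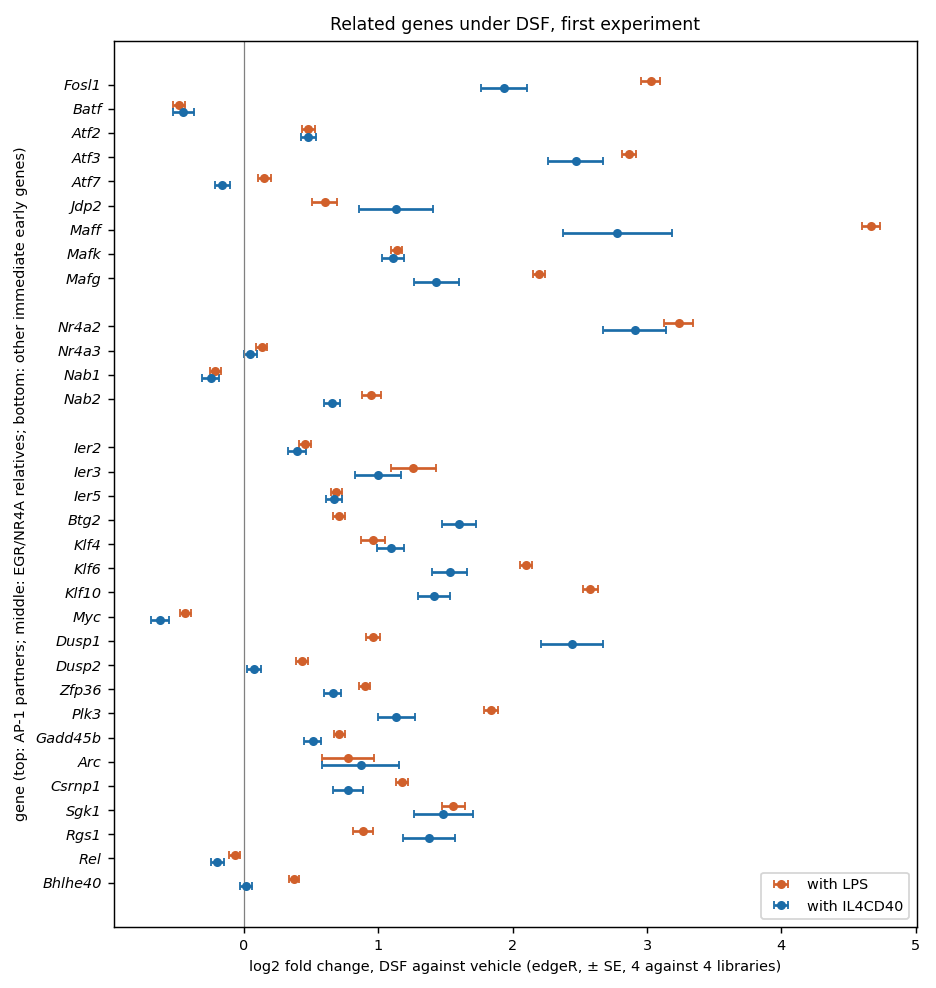
Log2 fold change with DSF (x axis, ± SE, 4 against 4 libraries) of the related genes that were tested under both stimuli, with 9 AP-1 partners at the top, 4 EGR and NR4A relatives in the middle and 19 other immediate early genes at the bottom. Maff and Nr4a2 lie farthest to the right in their lists, and Batf, Nab1 and Myc lie to the left of 0 under both stimuli.

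The same lists were counted for the stimuli against unstimulated cells, with 29.6% (LPS) and 30.4% (IL4CD40) of all genes tested being higher and 33.3% and 32.1% lower. These fold changes rest on all 4 unstimulated libraries, which were split into pairs, and are not given by pair here. With LPS 9 of 10 AP-1 partners were called, all of them higher than in unstimulated cells (median 1.93), led by Batf at 13.7-fold, and 12 of 19 other immediate early genes were higher and 4 lower, led by Myc (12.6-fold) and Gadd45b (11.2-fold). With IL4CD40 7 of 10 partners were called, all higher (median 1.45), led by Maff at 9.24-fold (log2 fold change 3.21, SE 0.64). Of the other immediate early genes 9 were higher and 5 lower, with Plk3 6.98-fold higher and Btg2 and Dusp1 lower by 3.42-fold and 3.16-fold. In the upstream list the kinase genes Mapk14 (4.55-fold with LPS and 4.83-fold with IL4CD40) and Rps6ka5 (3.79-fold and 5.27-fold) were lower than in unstimulated cells. Upstream genes counted 4 higher and 10 lower of 22 with LPS and 8 and 9 with IL4CD40. Of the 4 EGR and NR4A relatives, 2 were higher and 1 lower with LPS, and Nab2 was lower under both stimuli (1.67-fold and 1.66-fold), the 1 relative called with IL4CD40.

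In the second experiment DSF and ibrutinib were set side by side. With 1 library per condition the differences have no replicate check and were not tested. The 2 experiments were normalized separately. Ratios are log2 of TMM-normalized counts with a prior count of 2, and a change of 2-fold or more was counted. Without inhibitor, 2 members were past 2-fold higher with LPS, Nr4a1 at 699.8 CPM against 217 and Jun at 123 CPM against 53.5, where 8.62% of the 14275 genes were, and 0 were past 2-fold lower (9.88% of genes). With IL4CD40, 3 members were past 2-fold higher, Egr2 at 74.0 CPM against 25.1, Junb at 467 CPM against 185 and Jun at 121 CPM, where 10.7% of genes were, and 0 were past 2-fold lower (13.7%). Fos, at 19.3 CPM without stimulation, 24.6 CPM with LPS and 18.6 CPM with IL4CD40, and Fosb, at 42.3, 48.1 and 43.5 CPM, stayed within 2-fold. In the first experiment, on its own scale, unstimulated libraries 1 and 2 held Fos at 20.3 and 18.6 CPM and Fosb at 45.9 and 46.0 CPM.

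DSF with LPS put all 10 members above the library with LPS alone, 8 of them past 2-fold and 0 past 2-fold lower, against 20.3% and 19.5% of genes. Fosl2 went from 14.3 to 145 CPM (10.1-fold), Fosb from 48.1 to 302 CPM (6.27-fold) and Fos from 24.6 to 135.5 CPM (5.49-fold). The FOS genes thus led here too. Jun went from 123 to 437 CPM, 3.56-fold higher, the opposite direction to the first experiment, where on that experiment's own scale the LPS level was 365 to 396 CPM. Junb (3.30-fold), Nr4a1 (2.86-fold, to 2003 CPM), Egr1 (2.59-fold) and Egr2 (2.05-fold, and within 2-fold with total counts or with TMM factors from all genes) were also past 2-fold, and Egr3 (1.88-fold) and Jund (1.75-fold) were not. With IL4CD40 and DSF, 9 members were above the library without inhibitor, 5 of them past 2-fold, and 1 was past 2-fold lower, against 21.9% and 20.3% of genes. Fosl2 was 9.47-fold higher, Nr4a1 6.51-fold (172 to 1120 CPM), Fos 5.998-fold, Fosb 5.17-fold and Jun 3.59-fold. Egr2 went from 74.0 to 26.0 CPM, 2.83-fold lower, the direction it had in the first experiment. Egr1 (1.92-fold) and Egr3 (1.77-fold) were higher, where the first experiment had given log2 fold changes of -0.02 and -0.19.

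With ibrutinib the median log2 ratio of the members was -0.35 under LPS and -0.72 under IL4CD40, against 0.01 and 0.00 over all genes. Under either stimulus 9 members had a log2 ratio below 0, with Jund under LPS at -0.0002. Under LPS, 3 members were past 2-fold lower and 0 past 2-fold higher, against 2.47% and 2.81% of genes. Egr2 went from 14.6 to 4.75 CPM (3.04-fold lower), Egr3 from 59.6 to 23.5 CPM (2.53-fold lower) and Fosl2 from 14.3 to 6.27 CPM (2.25-fold lower). With IL4CD40, 4 were past 2-fold lower and 0 higher, against 1.69% and 2.23% of genes. Egr3 went from 45.6 to 9.96 CPM (4.55-fold lower), Egr2 from 74.0 to 19.7 CPM (3.74-fold lower), Nr4a1 from 172 to 58.7 CPM (2.93-fold lower) and Fosl2 from 13.8 to 6.83 CPM (2.01-fold lower, and within 2-fold with a prior count of 5, with total counts or with TMM factors from all genes). The genes past 2-fold lower were Egr2, Egr3 and Fosl2 under both stimuli and Nr4a1 under IL4CD40, and no JUN gene was among them. Egr1 stayed within 2-fold, at log2 ratios of -0.22 under LPS and -0.87 under IL4CD40, as did Nr4a1 under LPS, at -0.44. Jund was at 165 CPM with LPS, with or without ibrutinib, and at 176 against 183 CPM with IL4CD40, and the log2 ratios of Junb were 0.11 and -0.22. The DSF and ibrutinib ratios share the library without inhibitor, so they are given side by side only. For Egr2 with IL4CD40 they were -1.50 with DSF and -1.91 with ibrutinib, for Nr4a1 2.70 and -1.55, and for Fosl2 3.24 and -1.005. Both inhibitors were at 1 μM. Among the related genes, 7 of 10 AP-1 partners and 13 of 19 other immediate early genes were past 2-fold higher with DSF under LPS, and 6 and 10 under IL4CD40, with 1 of each list past 2-fold lower under either stimulus. With ibrutinib, 1 partner and 0 other immediate early genes were past 2-fold higher under LPS and 0 of either lower, and under IL4CD40 0 were higher and 1 of each lower. Of the 4 EGR and NR4A relatives, 2 were past 2-fold higher with DSF and 2 past 2-fold lower with ibrutinib under either stimulus. These counts stand beside the same shares of all genes as the members' counts.

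**Figure D5:**
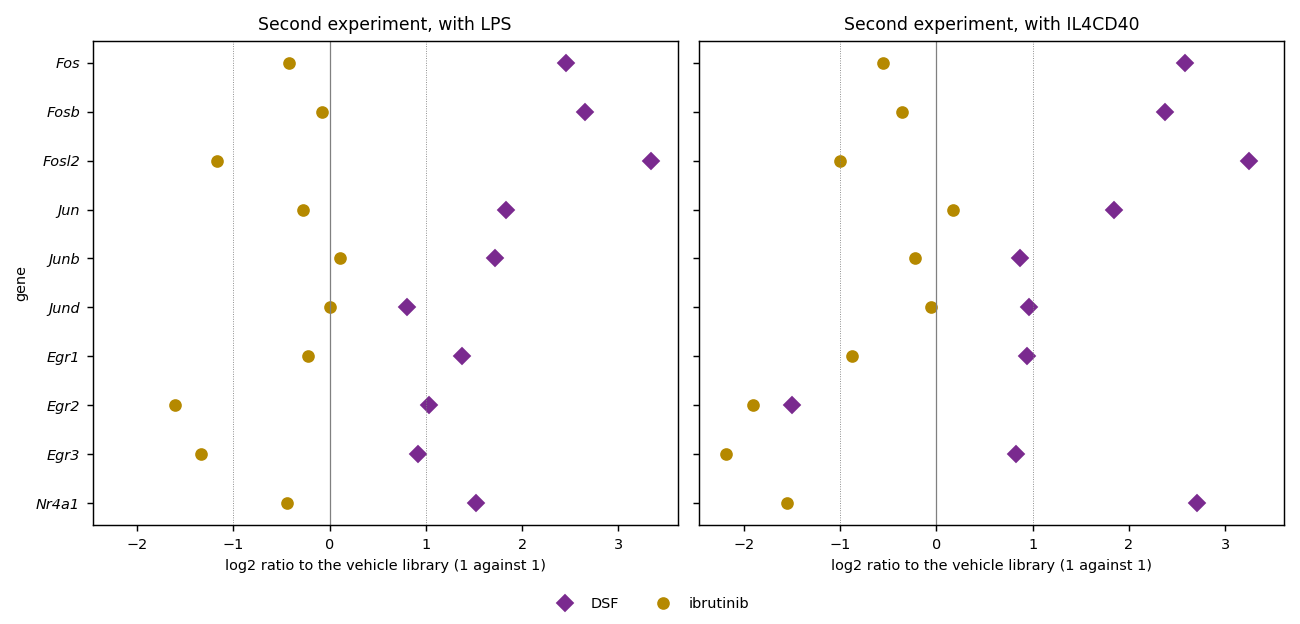
Log2 ratio of each member (y axis) to the stimulated library without inhibitor in the second experiment, under LPS (left) and IL4CD40 (right), with diamonds for DSF and circles for ibrutinib, 1 library each and therefore no error bars; dotted lines mark 2-fold. The DSF points lie to the right of 0 except Egr2 with IL4CD40. Under either stimulus 9 ibrutinib points lie to the left of 0, and those of Egr2, Egr3 and Fosl2 are past 2-fold under both.

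The genes whose pattern over the 20 libraries of the first experiment was nearest to each member were sought among 14426 genes averaging at least 10 counts, by the root mean square distance between log2 values centred on each gene's mean. The libraries share their groups, so this is a description. Nearest to Junb was Ier5, itself an immediate early gene, at a distance of 0.16, against a spread of 0.60 of Junb about its own mean. Nearest to Fosl2 was Litaf (0.22), to Fosb Cpm (0.36), to Nr4a1 Csf1 (0.30) and to Egr2 Syngr2 (0.41). For Fos the nearest genes were Gm15411 (0.54), Serpinb1a (0.55) and Cpne5 (0.59), and its nearest fellow member was Fosb, at 0.59. For Jun they were Gm8989 (0.42), March3 (0.47) and Mov10 (0.49), with Junb as nearest member at 0.75. Egr1 and Egr3 were nearest to each other among the members, at 0.37, and the genes nearest to them were Gramd1a (0.19) and Poc1b (0.18). Egr2 was far from all members, at 1.10 from Jund, the nearest, and Jund, whose own spread was 0.32, was nearest to H2-Aa (0.13).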

How the data were processed

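Reads were trimmed by the authors (Fastp), aligned to mm10 (HISAT2 2.0.5) and counted per gene (featureCounts 1.5.0-p3, versions from the submitters' processing notes), and the authors deposited the counts of 54532 genes without normalization for 20 libraries of the first experiment and 7 of the second. The authors' FPKM, calculated from these counts and gene lengths, were deposited beside them and were used here only for the order of members by level. The annotation release and the strand setting are not given in the sources used here, which matters for overlapping genes.

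Counts of the first experiment were tested in R 4.3.3 with edgeR 4.0.16 (quasi-likelihood test, TMM normalization, filterByExpr), 8 libraries per comparison and 16 for the difference between the stimuli, each fit over all genes. Adjusted p-values are Benjamini-Hochberg over all genes tested, with a threshold of 0.05. The SE is the absolute log2 fold change divided by the square root of the F statistic. Levels are TMM-normalized CPM. In the second experiment log2 ratios used a prior count of 2 and genes averaging at least 10 counts. No test was run there, and 2-fold counted as a change. The fit was first tried on simulated counts for DSF under LPS and for the difference between the stimuli, with the same dispersion for every gene. The comparisons with unstimulated cells and the split of their libraries were not simulated.

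Alternatives were total counts, DESeq2's size factors, DESeq2 1.42.0, all genes with any count, all 20 libraries in one fit, a replicate block and leaving out each library; for the second experiment, prior counts of 0.5 and 5 and total counts. Splitting the libraries into 1 and 2 against 3 and 4, repeating the list counts under the alternatives, and the second experiment's TMM factors from all genes were chosen after seeing the data; in the last case the order of filter and TMM had been changed after values were seen. All 10 members are named in each pairwise comparison of the first experiment. For the difference between the stimuli and for the second experiment the text does not name all of them. From each of the 4 lists up to 3 genes per direction could be named, by size among those called without overlap between groups. The members and lists were chosen with earlier results of these data known. Promoter windows and starts are from RefSeq (GRCm38.p6). Of the 8 members with windows, the RefSeq start matched the gene start of the count tables for Fos and Jun and differed for the others.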

Additional observations from a re-analysis of the deposited data

Results flagged for a closer look

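The effect of DSF differed between LPS and IL4CD40 for 6 of the 10 members, by the interaction term of edgeR's quasi-likelihood test over 16 libraries. The value is the log2 effect under LPS minus that under IL4CD40. For Jun it was -2.11 (adjusted p = 2.81e-08), with DSF-treated libraries below the others under LPS and above them under IL4CD40. For Egr2 it was 1.06 (adjusted p = 3.1e-05), since DSF lowered Egr2 with IL4CD40 and the effect with LPS was not called. For Nr4a1 it was -0.57 (adjusted p = 0.00146), for Egr3 0.54 (adjusted p = 1.09e-05) and for Egr1 0.40 (adjusted p = 0.0103). For Junb it was 0.25 (adjusted p = 0.0484), a call lost with 5 of the alternatives (adjusted p from 0.0509 to 0.787). In the fit of all 20 libraries the differences of Egr1 (0.33), Egr2 (0.98) and Nr4a1 (-0.64) were also not called. That fit called 205 genes higher and 710 lower of 15575, where the main fit called 1199 and 1053 of 15130. In the second experiment, without a test, Jun was higher with DSF under both stimuli. Among the 50 groups of 4 libraries, 1 per member and condition of the first experiment, no library stood apart from the other 3 beyond Dixon's 95% critical value, a measure that cannot single out a library where a group is split into pairs, as the unstimulated group was.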

How the results depend on the processing

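Leaving out each library kept the numbers of members called with DSF at 8 higher and 1 lower under LPS, and 7 and 2 under IL4CD40. For the other comparisons the range was 2 to 3 higher and 3 lower for LPS against unstimulated, 1 and 4 for IL4CD40, 6 to 7 and 2 for LPS against IL4CD40, 5 and 1 to 2 for LPS with DSF against unstimulated, 1 to 4 and 2 to 4 for IL4CD40 with DSF, and 3 to 4 and 2 for the difference between the stimuli. DESeq2 gave the same numbers as edgeR except 3 higher for that difference. The cause of the changes below was not tested.

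With total counts in place of TMM the median of all genes shifted to -0.27 with LPS, -0.21 with DSF under LPS and -0.43 with LPS and DSF, and the calls over all genes moved from 4283 higher and 4818 lower to 2903 and 6387 with LPS, from 4966 and 5096 to 3473 and 6680 with DSF under LPS, and from 4301 and 4514 to 3262 and 5832 with DSF under IL4CD40. Of the members, 2 were then lower with DSF under LPS, 3 higher with LPS and DSF against unstimulated and 1 higher with IL4CD40 and DSF. Against unstimulated cells, 3151 of all genes were higher and 7453 lower of 14663 with LPS and DSF. With IL4CD40 and DSF they were 3117 and 6760 of 14678. Egr1 turned to -0.20 with LPS, where it was then called lower (adjusted p = 0.0361 from edgeR). It turned to -0.025 with LPS and DSF against unstimulated, where it was no longer called.

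In the fit of all 20 libraries, 6 members were higher and 0 lower with DSF under LPS, 6 and 1 with DSF under IL4CD40 and 5 and 1 in LPS against IL4CD40, and 1 was higher and 1 lower for the difference between the stimuli. In the same order, the calls over all 15575 genes tested were 4282 and 4541, 4547 and 3760, 2774 and 2094, and 205 and 710. For the difference between the stimuli the main fit had called 1199 and 1053 of 15130 genes.

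Samples with the same replicate number mostly did not deviate together (correlations of deviations for 40 same-numbered pairs from -0.0674 to 0.196, 3 over 0.1). The largest, 0.196 and 0.184, were between IL4CD40 libraries with and without DSF, where a differently numbered pair reached 0.15. Whether same-numbered samples shared an animal or culture is not settled by this. With a replicate block the numbers were 8 and 1 with DSF under LPS, 7 and 2 with DSF under IL4CD40, and 7 and 2 for LPS against IL4CD40, where Fos was gained (0.81, adjusted p = 0.0179 from edgeR). For IL4CD40 and DSF against unstimulated they were 6 and 2, with Fos lost (-1.15) and Junb gained (0.67). Over all genes the block gave 4949 higher and 5098 lower of 14154 with DSF under LPS, and 4155 and 4310 of 14275 under IL4CD40. It gave 2973 and 2164 of 14078 for LPS against IL4CD40, and 4749 and 4876 of 14678 for IL4CD40 and DSF against unstimulated.

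The split of the libraries moved the comparisons with unstimulated cells most. Fits with 1 pair of libraries leave out the spread between the pairs, so their calls are a description. Against unstimulated libraries 1 and 2, Jund turned to 0.27 with LPS, 4 members were higher with IL4CD40, 8 higher and 2 lower with LPS and DSF where Fos turned to 1.25, and 8 higher with IL4CD40 and DSF, where Fos turned to 0.48 and Fosb to 0.19. Over all genes, 4352 were then higher and 4705 lower of 15066 with IL4CD40. The calls were 5677 and 5984 of 15402 with LPS and DSF, and 5368 and 5544 of 15364 with IL4CD40 and DSF. Against libraries 3 and 4, 5 members were higher with LPS and Egr2 turned to 1.28, 3 were higher with IL4CD40 and the sign turned for Junb (-0.30), Jund (-0.19) and Nr4a1 (0.97), and 4 were lower with LPS and DSF and it turned for Fosb (-0.45), Jund (-0.31) and Egr2 (1.16). Over all genes, 5618 were then higher and 5902 lower of 15229 with LPS. The calls were 5157 and 5545 of 15335 with IL4CD40, and 6064 and 6361 of 15588 with LPS and DSF. With libraries 1 and 2 of every group, Jund was 0.20 with LPS, Fosl2 -0.26 and 4 members higher with IL4CD40, Fosb 0.46 for LPS against IL4CD40, Fos 1.25 with 8 higher and 2 lower for LPS and DSF, Fos 0.50 for IL4CD40 and DSF, and Fos -0.56 for the difference between the stimuli. Over all genes, 4927 were then higher and 5290 lower of 14687 with IL4CD40, and 5255 and 5634 of 15015 with LPS and DSF. With libraries 3 and 4 of every group, 6 were higher with LPS, 3 higher with IL4CD40, 4 lower with LPS and DSF and 1 lower with DSF under IL4CD40, and the sign turned for Egr2 with LPS (1.29), for Junb (-0.29), Jund (-0.18) and Nr4a1 (1.13) with IL4CD40, and for Fosb (-0.44), Jund (-0.20) and Egr2 (1.17) with LPS and DSF. Over all genes, 5174 were then higher and 5517 lower of 14717 with LPS, and 5303 and 5546 of 15037 with IL4CD40. The calls were 5707 and 6149 of 15142 with LPS and DSF, and 3648 and 3540 of 14709 with DSF under IL4CD40.

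In the second experiment total counts and TMM factors from all genes each gave 7 in place of 8 members past 2-fold higher with DSF under LPS, and these and a prior count of 5 gave 3 in place of 4 lower with ibrutinib under IL4CD40. Its 7 libraries have no replicates, so depth sets only a lower limit on their error.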
